A study of Arabidopsis thaliana with 8 samples.

Results

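Digestion of wild-type RNA with RNase R was followed over 13085 loci, those with at least 1 FPKM (fragments per kilobase of transcript and per size of the library) in at least 2 of the 4 Col-0 libraries, out of 32232 loci in the table. Ribosomal RNA-depleted total RNA came from inflorescences of Arabidopsis thaliana grown at 22 °C under 16 h of light and 8 h of dark. Col-0 is the wild-type accession, and its RNA was sequenced in 2 libraries after 2 h with RNase R at 37 °C and in 2 libraries without the enzyme. The other 4 libraries of the study are the same pair of treatments in dbr1-2, a mutant of the lariat debranching enzyme gene DBR1. They shared the fit and serve here for 1 comparison. The sequencing tags of all 4 Col-0 libraries also name removal of mRNA. The labels do not say whether replicate libraries came from separate plants, and they carry 1 sample code, so p-values may measure technical spread only.

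RNase R is a bacterial exonuclease that starts at a free, single-stranded 3′ end and works inward through linear RNA. Circular RNAs and the closed loop of an intron lariat have no such end, and linear RNAs whose 3′ end is folded or held in a duplex are attacked poorly. Messenger RNAs, with an open poly(A) tail, are typical substrates. An experiment of this kind therefore sorts RNAs by their form as well as by their amount, and sequencing shows only the share of each RNA among what is left.

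The floral genes AP1, AP3, PI and SEP3 were at 7.98 to 16.5 FPKM in the untreated libraries, whereas the 4 root markers summed to 0.347 and 0.396 FPKM and the 4 seed storage genes to 0.0375 and 0.0547 in the same libraries. Of the whole list of 20 floral identity and meristem genes, 16 were members, with an untreated median of 4.97 FPKM. Nuclear photosynthesis genes, a set of green tissue, were higher, with an untreated median of 68.9 FPKM over 26 members. The libraries are bulk RNA of whole inflorescences, so fewer cells of a type and less RNA per cell cannot be told apart. FPKM totals were 336643 and 295494 without RNase R and 2796449 and 3770493 with it. In the low values, 1 FPKM on 1 kb was worth 89.4 and 86.4 reads without RNase R but 11.3 and 8.58 with it, on lengths from which 199 nt were taken off. Loci near or under that length thus receive a very high FPKM per read, and low values after digestion are the least precise: 3 reads on 1 kb amounted to 0.266 and 0.35 FPKM. Spearman's rho across members was 0.982 between the untreated libraries and 0.937 between the digested ones. The 5 most abundant loci held 49.2% and 42.2% of the total without RNase R and 79.2% and 82.4% with it, and nuclear protein-coding loci held 26.9% and 30.8% against 4.91% and 3.84%.

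Most members were lower after digestion in the deposited FPKM. A smaller group was higher, and 696 of its loci were protein-coding. In the deposited FPKM, 1107 members rose, 9554 fell and 2424 did not pass (limma, Benjamini-Hochberg adjusted p under 0.05 over 14351 loci), with 8.27% of all tested loci called higher, 71.0% called lower and 79.3% called in either direction. The values of the groups did not overlap for 1537 higher and 10493 lower members, against 11.8% and 79.0% of tested loci. The median log2 fold change, on log2(FPKM + 1), was −0.66 over the tested loci and −0.71 over the members. That split depends on the scaling. Scaling by median ratios put the median of the tested loci at −0.05 and gave 3787 members higher and 4231 lower, against 28.3% and 31.0% of tested loci. Quantile normalization gave 3686 and 4213, TPM gave 191 and 12739, and rescaling after removal of organelle, ribosomal RNA and snRNA loci gave 243 and 11970. The removal keeps AT1G15405, listed at 0 in digested replicate 1 and 934126 FPKM in digested replicate 2. That locus enters the rescaled total of only 1 digested library, so the digested replicates are scaled far apart and these calls are less sure. The totals behind TPM hold it too. Under all 5 scalings, 185 members were higher and 3753 lower (1.31% and 26.5% of tested loci). Of these, 6 and 20 are organelle or snRNA loci, which the removal leaves without a value, so they held under the other 4 scalings. "Rose" and "fell" refer below to calls in the deposited FPKM, and calls that held under all 5 scalings are marked as such. At the edge of membership, 496 members had a second-highest value of 1 to 1.1 FPKM, and 497 loci with 0.9 to 1 FPKM were left out. Membership also shaped the counts. Of the members, 446 reached 1 FPKM only in the digested libraries, and 416 of them were called higher. Another 4023 reached it only in the untreated ones, and 3942 were called lower. They entered through 1 group, so their calls test nothing. Of the 7145 members at 1 FPKM or more in all 4 libraries, 637 rose and 4553 fell (median −0.52).

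**Figure D1:**
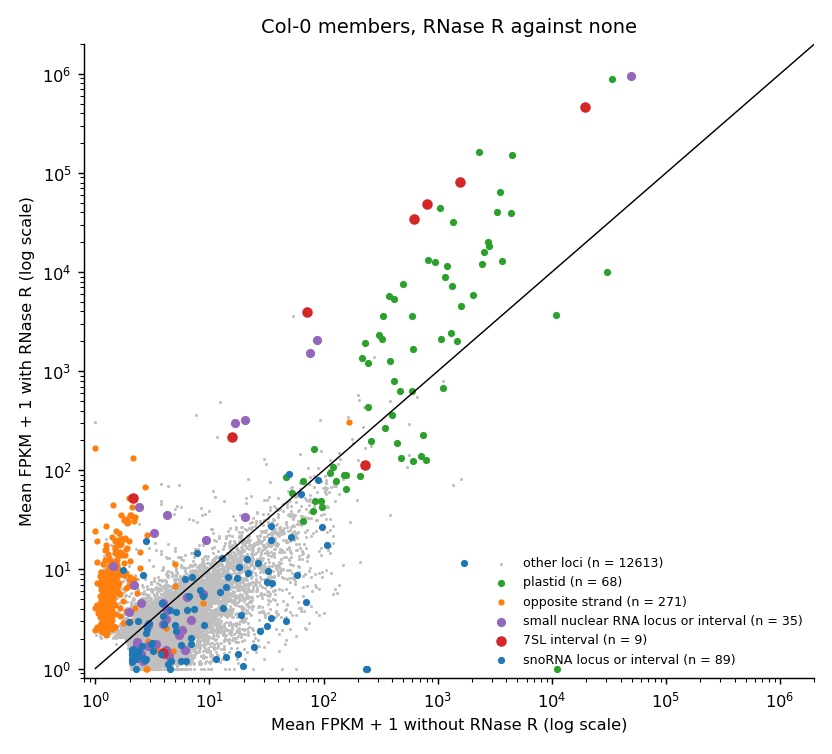
Mean FPKM + 1 of each of the 13085 members with RNase R (vertical) against without (horizontal), both on log axes, with the line of equal values. Most opposite-strand loci (n = 271, those that hold a small RNA being shown with it) and many of the 68 plastid loci lie above the line, 7SL intervals (n = 9) and small nuclear RNA loci or intervals (n = 35) lie on both sides, and most snoRNA loci or intervals (n = 89) and other loci lie below it.

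Some loci of small structured RNAs stood far apart between the digested and the untreated libraries. Most loci over copies of 7SL RNA, the RNA core of the signal recognition particle that brings ribosomes to the endoplasmic reticulum, were up to 60.5 times as high with RNase R. Loci of U1, U2 and U4 small nuclear RNAs, RNAs of the spliceosome, were among those that rose. The snoRNA SNOR111 (small nucleolar RNA, which guides chemical modification of ribosomal RNA) was listed at 0 in both digested libraries. Its 130 nt lie under the 199 nt taken off lengths, where 1 read is worth a very high FPKM. No direction is therefore drawn for SNOR111. The sequences of 1 RNA of each kind, and of a pair of further 7SL copies, are shown because the values of the small RNA loci turn on them. The locus AT1G15405 is shown for its 7SL copy and was itself not called. They are credited to RefSeq, build TAIR10.1, and are written 5′ to 3′ as DNA.

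The 3 7SL-like sequences are that of AT1G15405 (chr1:5297875-5298166, minus strand, 292 nt) and those of copies numbered 6 and 7 here (chr4:1472732-1473030 and chr4:1476292-1476588, plus strand, 299 and 297 nt). Copy 6 lies in the long non-coding RNA gene AT4G04565 and copy 7 in AT4G04595. They align at 80.4%, 91.3% and 89.6% identity with the 300 bases at chr4:1318880-1319179 on the minus strand, in the gene annotated as 7SL RNA1. Capitals mark the 6 runs of at least 12 bases that all 3 share, 115 bases in all, the longest of 31.
AT1G15405: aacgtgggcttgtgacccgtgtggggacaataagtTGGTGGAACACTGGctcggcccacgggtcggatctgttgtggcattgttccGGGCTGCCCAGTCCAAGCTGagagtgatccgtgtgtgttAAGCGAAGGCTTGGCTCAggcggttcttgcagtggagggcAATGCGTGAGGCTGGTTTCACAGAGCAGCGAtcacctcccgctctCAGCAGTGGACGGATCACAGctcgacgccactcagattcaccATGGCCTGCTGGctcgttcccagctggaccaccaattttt
7SL copy 6: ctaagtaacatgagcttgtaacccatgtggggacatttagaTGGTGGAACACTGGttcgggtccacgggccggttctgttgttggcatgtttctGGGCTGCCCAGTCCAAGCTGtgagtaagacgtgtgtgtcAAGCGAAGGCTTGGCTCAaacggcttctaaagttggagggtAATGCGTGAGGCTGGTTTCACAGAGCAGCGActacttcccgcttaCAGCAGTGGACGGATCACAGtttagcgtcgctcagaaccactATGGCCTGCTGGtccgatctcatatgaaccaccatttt
7SL copy 7: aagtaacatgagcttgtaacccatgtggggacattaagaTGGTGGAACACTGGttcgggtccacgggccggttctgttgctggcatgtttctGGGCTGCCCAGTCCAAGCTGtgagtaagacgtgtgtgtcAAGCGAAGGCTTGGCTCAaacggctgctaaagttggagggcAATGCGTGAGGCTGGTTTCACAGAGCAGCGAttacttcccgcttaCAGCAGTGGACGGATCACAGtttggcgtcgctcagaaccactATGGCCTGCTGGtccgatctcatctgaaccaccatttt

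U1.5 (AT1G08115, chr1:2538074-2538238, minus strand, 165 nt) opens with the letters ACTTACCTG, set in capitals, which are complementary to the start of introns. On the gene strand 4 of the 82 annotated nuclear snRNA genes hold them, as do 0.094% of 165-nt windows of the nuclear genome on either strand. SNOR111 (AT1G12013, chr1:4058287-4058416, plus strand, 130 nt) has TGATGA at position 40 and CTGA at positions 31 and 110, counted from its 5′ end and set in capitals. These are letters of the C and D boxes of one snoRNA family. Both occur in 139 of 287 annotated snoRNA genes and in 6.23% of 130-nt windows.
U1.5: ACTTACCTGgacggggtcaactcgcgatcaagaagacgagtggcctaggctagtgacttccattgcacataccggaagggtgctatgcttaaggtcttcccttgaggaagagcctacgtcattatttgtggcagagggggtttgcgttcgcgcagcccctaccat
SNOR111: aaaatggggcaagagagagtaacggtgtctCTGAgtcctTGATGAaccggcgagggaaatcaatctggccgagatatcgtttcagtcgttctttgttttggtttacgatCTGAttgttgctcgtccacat

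Of the 5 members whose interval holds a 7SL copy on their own strand, 4 rose, each under all 5 scalings. The locus named AT4G03360, which the numbering of loci places on the strand opposite that ubiquitin-family gene and whose interval holds copies 6 and 7, stood at 1403 and 1708 FPKM without RNase R and at 80417 and 82860 with it. The digested libraries were both far above the untreated ones and close to each other (log2 fold change 5.72, SE 0.17, limma adjusted p = 4.58e-07). AT2G31141 (chromosome 2 from 13271726 to 13272534), annotated as an uncharacterized protein but holding a copy of 83.7% identity, went from 771 and 833 to 47861 and 49153 FPKM (5.92, SE 0.18, adjusted p = 4.82e-07). RR3 (AT2G41310, chromosome 2 from 17221840 to 17224880), the gene of a cytokinin response regulator, holds a partial copy near its end and went from 520 and 718 to 34155 and 34808 FPKM (5.82, SE 0.19, adjusted p = 6.08e-07). AT1G49700 went from 1.2 and 1.12 to 49.7 and 53.2 FPKM (4.60, SE 0.10). In each of these the groups were separate and the replicates near one another.

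The fifth such locus, AT1G15405, was the only one of them not called. It was listed at 17489 and 21796 FPKM without RNase R and at 0 and 934126 with it. Beside the value of the other digested library the 0 may be a failed estimate, so no direction is drawn from the 4 values. Its log2 fold change was −4.34 (SE 5.06, adjusted p = 0.45), and 5.58 without the library listed at 0. Of 4 members with a copy on their other strand, BXL3 (AT5G09730), a beta-xylosidase gene, went from 60.8 and 81.8 to 3877 and 3948 FPKM and AT7SL-1 (AT4G02970) from 14.7 and 14.6 to 202 and 234 FPKM. Both rose, though the call of AT7SL-1 was lost as TPM and after the removal (adjusted p = 0.0552 and 0.0892). AT2G31140, beside AT2G31141 in the same interval, fell from 2.99 and 2.76 to 0.572 and 0.3 FPKM. The near-identical copies could have exchanged reads in the counting, so the level of any 1 copy is uncertain. How much of a level belongs to the 7SL copy and how much to the gene the locus is named after was not tested.

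Of the 4 members annotated as small nuclear RNAs themselves, 3 rose, with 4 higher under median-ratio scaling and 2 higher and 1 lower as TPM. U1.5 stood at 67000 and 31052 FPKM without RNase R and at 940322 and 978765 with it (4.39, SE 0.48, adjusted p = 8.97e-05). Its length of 165 nt makes its FPKM very large per read. The rise of U1.5 did not hold under every scaling that keeps snRNA loci, and its log2 fold change was 1.03 as TPM. U4.2 (AT3G06900), which pairs with U6 in the spliceosome, went from 111 and 38.2 to 1480 and 1543 FPKM (4.51, SE 0.54), and U2.3 (AT3G57765), whose RNA binds the branchpoint, from 17.3 and 21.9 to 305 and 330 FPKM (3.96). In U1.5 and U4.2 the untreated replicate 1 was well above replicate 2, and both digested values lay above both of them. U2.6 was at 13.2 and 3.54 against 16.7 and 20.6 FPKM and did not pass (1.29, adjusted p = 0.122).

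Some protein-coding loci whose interval holds an snRNA gene rose as far. AT4G23420, over U1.2, went from 123 and 50.2 to 2026 and 2061 FPKM (4.68, SE 0.44, adjusted p = 4.13e-05). AT5G26990, over U4.8 and U1.9, went from 22.9 and 8.52 to 298 and 293 FPKM, and AT1G11880, over U4.6 and U1.10, from 1.68 and 1.16 to 40.5 and 42.5. In all 3 the groups were separate. Of AT3G56830 (U2.4), MIM (U2.7) and AT1G61280 (U12), each rose, with log2 fold changes of 3.09, 2.86 and 1.68. Others fell: NRPA1 (U2.2*), the largest subunit of RNA polymerase I, from 4.47 and 4.3 to 1.14 and 1.25 FPKM, FTSH12 (U5.9) from 4.96 and 4.59 to 1.49 and 1.38 FPKM and AT1G70200 (U5.3) from 5.49 and 4.61 to 0.421 and 0.62. With the snRNA on their own strand, 6 of 17 members rose, 2 of them under all 5 scalings, and 8 fell. With it on the other strand, 1 of 13 rose and 9 fell. Of all tested loci 8.27% were called higher and 71.0% lower. Intervals with an snRNA thus went both ways.

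**Figure D2:**
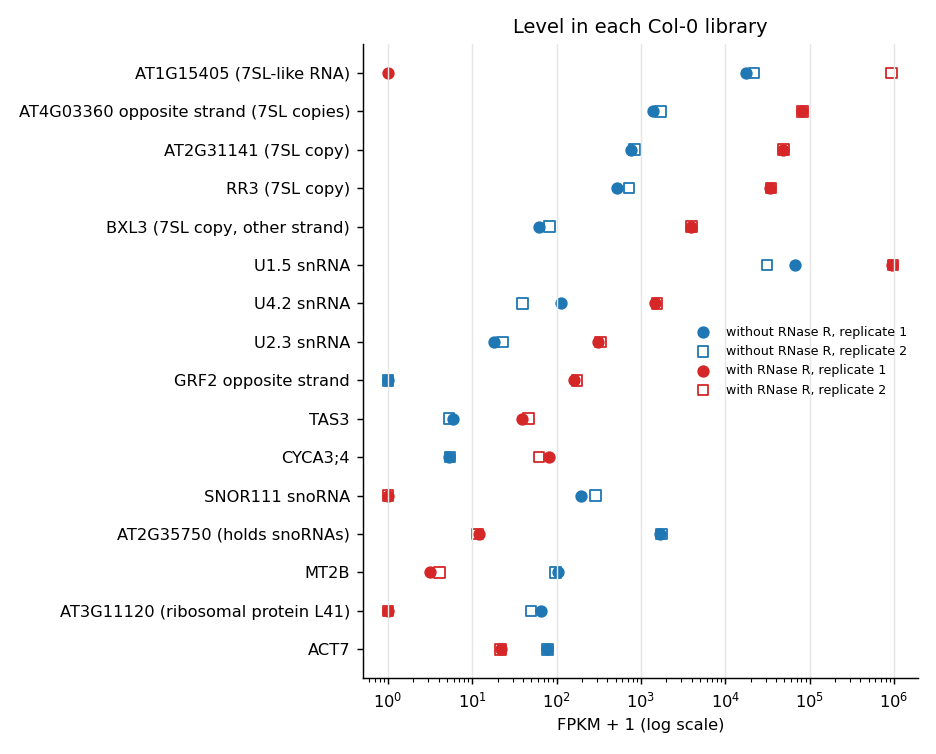
FPKM + 1 on a log axis for 16 loci in each Col-0 library, blue without and red with RNase R, filled circles for replicate 1 and open squares for replicate 2. Loci over 7SL copies, U1.5, U4.2, U2.3, TAS3 and CYCA3;4 lie to the right after digestion, SNOR111, MT2B and ACT7 to the left, and AT1G15405 has 1 digested library at 0 and 1 at 934126 FPKM.

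Of the snoRNA loci a few were far lower after digestion, and the class as a whole lay near the bulk. SNOR111 was at 193 and 289 FPKM without RNase R and listed at 0 in both digested libraries, and SNOR105 went from 3.36 and 3.73 to a listed 0 in both (adjusted p = 3.52e-07 and 1.7e-06). At the 130 nt of SNOR111 the worth of 1 digested read may exceed its untreated values, so no direction is drawn for it. AT2G35750, a short uncharacterized gene whose interval holds 2 snoRNA genes, went from 1664 and 1750 to 11 and 10.5 FPKM (−7.19, SE 0.24, adjusted p = 6.48e-07). AT5G06165, a non-coding RNA gene with snoRNAs inside, fell from 48.8 and 42.6 to 1.6 and 2.41 FPKM (−3.97, SE 0.16). No value of a digested library reached those of the untreated ones in these 4 loci. Of 83 members whose interval holds a snoRNA on their own strand, 65 fell, 36 of them under all 5 scalings, 6 rose and 12 did not pass, with a median of −0.87 beside −0.71 over all members, and 17 were higher and 40 lower with median-ratio scaling. The share that fell is near the 71.0% of tested loci. Of the 11 loci annotated as snoRNAs themselves, 7 fell, 3 did not pass and AT5G13225 rose, from 1.07 and 0.435 to 7.6 and 10.1 FPKM (2.50, adjusted p = 1.72e-05). Their median was −0.81, and with median-ratio scaling 1 was higher and 4 were lower. The larger U3B and U3D, which act in processing of ribosomal RNA, were at 10.7 and 3.8 against 5.26 and 5.05 and at 19.4 and 6.37 against 5.81 and 5.57 FPKM, and did not pass.

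The largest class among the steady rises carried the names of protein-coding genes but lay on the other strand. The strand is inferred from the numbering of the loci, which followed the annotated strand in 99.92% of uniquely named loci, and the sources used here do not give how these loci entered the table. There were 273 such members. Of these 260 rose in the deposited FPKM, 8 fell and 5 gave no call. Median-ratio scaling and quantile normalization gave 262 and 264 higher with 3 lower each, TPM 132 higher and 44 lower, and the removal 182 and 10. Under all 5 scalings 131 were higher, which is 48% of them and 70.8% of all members higher under all 5. Their median log2 fold change was 2.13, beside −0.71 over all members.

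The median opposite-strand member was at 0.355 FPKM without RNase R and 5.24 with it, and 230 of the 273 were below 1 FPKM in both untreated libraries while 265 were at 1 FPKM or more in both digested ones. Members that are low without the enzyme entered through their high digested values, and they had to differ, so these counts describe the class and test nothing. For 233 of them, a locus of the same name on the annotated strand was tested too. In 201 of these pairs that locus fell and in 7 it rose, with a median of −0.80, while 71.0% of all tested loci fell. Some loci are partner to more than 1 opposite-strand locus and are counted each time. The genes that opposite-strand members are named after had a median of 7 introns and a longest intron of 366 nt. Protein-coding members had 4 introns and 277 nt. No intron was annotated in 2.2% of the former, beside 11.1% of the latter. If counting did not use the strand, reads of a gene and of its antisense locus cannot be told apart.

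The locus opposite GRF2 (AT1G78300, chromosome 1 from 29461391 to 29463389), the gene of a 14-3-3 protein, was listed at 0 in both untreated libraries and at 159 and 174 FPKM in the digested ones (adjusted p = 4.09e-06). That opposite AT1G72480 went from 0.0716 and 0.798 to 42.2 and 44.3 FPKM (4.99, SE 0.33, adjusted p = 8.32e-06), and that opposite AT3G51140 from 0.903 and 1.01 to 44.3 and 58.4 (4.73, SE 0.18). All 3 held under every scaling. They became members through their digested values, however, so neither the scalings nor the p-values test the rises. Beside 8.99 and 7.8 FPKM in the untreated dbr1-2 libraries, the 0 opposite GRF2 may be a failed estimate. Chosen after their values were seen, the loci opposite PRMT7, a protein arginine methyltransferase, and SCC3, a cohesin subunit, were at a listed 0 against 23.2 in both libraries and at 0.768 and 0.581 against 38 and 30.1 FPKM. AT3G06435 rose on both strands, from 0.857 and 1.38 to 131 and 136 FPKM opposite the gene and from 2.78 and 2.81 to 48.5 and 48.1 on its strand. It overlaps a gene on the other strand and has a copy of 98.9% identity on chromosome 3, which makes both levels uncertain.

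**Figure D3:**
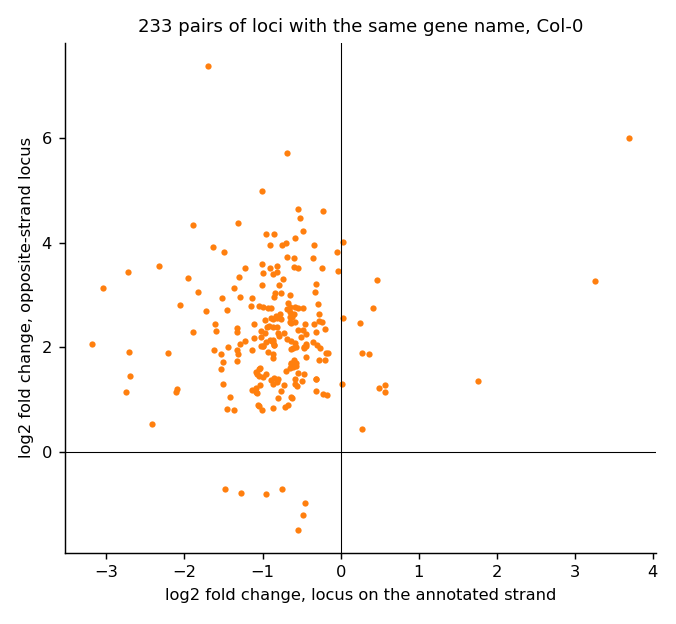
Log2 fold change with RNase R of 233 opposite-strand members (vertical) against that of the locus of the same name on the annotated strand (horizontal), each point a pair. Most points lie in the upper left, with medians of 2.13 over the opposite-strand members and −0.80 over their partners.

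Plastid transcripts, which need no poly(A) tail to be stable and often end in a stem-loop, split by gene. Of 68 plastid members, 38 rose and 22 fell, with 8 short of the threshold. The split was 47 to 6 with median-ratio scaling, 26 to 27 with quantile normalization and 7 to 47 as TPM. Under the 4 scalings that keep plastid loci 5 were higher and 6 lower. The gene rps14, for a protein of the plastid ribosome, went from 2485 and 2157 to 158423 and 164577 FPKM (6.12, SE 0.20, adjusted p = 6.37e-07), petD, a cytochrome b6f subunit, from 976 and 1107 to 43263 and 45392 (5.41, SE 0.16), and psbN from 4154 and 4839 to 146327 and 159394 (5.09). These 3 and the photosystem II genes psbI and psbL were the 5 that held under these 4. The gene psbM, a short photosystem II gene, was at 43344 and 23834 against 889228 and 868716 FPKM and rose (4.77, SE 0.42), with a length of 105 nt that makes its FPKM very large per read. The same limit holds for psbI, psbL and psbN, with lengths of 111, 117 and 132 nt.

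Genes of the plastid RNA polymerase fell in the deposited FPKM: rpoB from 66.9 and 62.4 to 30.1 and 29.8, rpoC1 from 95 and 96.8 to 41.9 and 41, and rpoC2 from 81.1 and 78.4 to 37.2 and 38.2, while rpoA, which lies in another operon, rose from 227 and 229 to 1904 and 1952. The falls were close to the median shift, and with median-ratio scaling the log2 fold changes of the 3 were −0.09, −0.19 and −0.06. The ATP synthase gene atpF fell from 777 and 815 to 129 and 124 FPKM (−2.64, SE 0.28, adjusted p = 7.21e-05), and rpl14 and rpl16, of the plastid ribosome, fell by 2.37 and 2.28 on the log2 scale, all 3 under the same 4 scalings. Of these, atpF and rpl16 have an intron. Of the 9 plastid members with an intron, 4 rose, 4 fell and 1 did not pass. Of 23 plastid members under 300 nt, 18 rose and 2 fell, against 17 and 17 of the 38 that are longer. This too depends on the scaling. For the shorter ones, higher and lower calls were 20 and 0 with median-ratio scaling, 11 and 7 with quantile normalization and 4 and 10 as TPM. For the longer ones they were 23 and 4, 13 and 16, and 3 and 31 in the same order. The photosystem II core gene psbA was listed at 10159 and 12106 FPKM without and at 0 in both digested libraries, rbcL at 8804 and 0 against 39187 and 40535, and psbT at 0 and 5544 against 40513 and 0. A 0 in so abundant a plastid gene can be a failed estimate, and no direction is drawn for these 3. In the counts above, rbcL is 1 of the 38 and of the 17 longer genes that rose, and psbA is 1 of the 22 and of the 17 longer genes that fell and 1 of the 6.

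Among the named falls of nuclear protein-coding members, many were of ribosomal protein genes. On log2(FPKM + 1) a locus can fall no further than its untreated level allows. Naming also asked for a mean of at least 5 FPKM, so only well expressed loci could show the largest falls. Spearman's rho of the change with untreated FPKM was −0.364 over 12001 protein-coding members without a small RNA in their interval. It was −0.092 with a pseudocount of 0.01. AT3G11120, for ribosomal protein L41, was at 64.6 and 49 FPKM without RNase R and listed at 0 in both digested libraries (adjusted p = 1.17e-06). MT2B (AT5G02380, chromosome 5 from 506498 to 507244), a metal-binding metallothionein, fell from 104 and 96.4 to 2.13 and 3.1 FPKM (−4.82, SE 0.15, adjusted p = 5.2e-07). RPL23AA (AT2G39460) fell from 58.9 and 55 to 0.904 and 1.36 FPKM (−4.77, SE 0.12), and AT2G25210, for ribosomal protein L39, from 42.7 and 37.5 to 0.427 and 0.562 (−4.78, SE 0.19). In all 4 the groups were far apart. AGP21, an arabinogalactan protein of the cell surface, LCR69, a small cysteine-rich protein, and PSBTN, a nuclear-encoded photosystem II subunit, fell by 4.62, 4.56 and 4.32 on the log2 scale. Of 299 ribosomal protein members by product name, 279 fell, 196 of them under all 5 scalings, 3 rose and 17 did not pass, with a median of −1.60. Of 34 histone members, whose proteins package DNA, 32 fell, 20 of them under all 5 scalings, and 2 did not pass (median −1.55). With median-ratio scaling the splits were 29 higher and 199 lower for ribosomal proteins and 2 and 20 for histones.

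Far fewer protein-coding members rose under every scaling: 20 of 12125, against 3622 that fell under every one. Among the 20 are AT2G31141, RR3, BXL3 and AT1G49700, whose intervals hold a 7SL copy. The 20 also include AT4G23420, AT5G26990 and AT1G11880, whose intervals hold snRNA genes. The falls include such loci as well, among them AT2G35750 over snoRNA genes. How much of these changes belongs to the named genes was not tested. The deposited FPKM gave 696 rises and 9167 falls. AT5G59860, an RNA-binding protein gene of 474 nt of exon that overlaps a gene on the other strand, went from 2.58 and 2.99 to 69.9 and 73.7 FPKM (4.27, SE 0.13, adjusted p = 5.02e-07). AT1G32570 went from 3.6 and 3.01 to 65.2 and 71.4 (4.01, SE 0.10), and ARPC1A (AT2G30910), a subunit of the actin-branching Arp2/3 complex, from 1.01 and 1.81 to 20.3 and 35.4 (3.55, SE 0.26). These 3 held under all 5 scalings. CYCA3;4, an A-type cyclin of the cell cycle, went from 4.34 and 4.41 to 80.5 and 60.6 FPKM and rose (3.72, SE 0.15), but not under every scaling. The retrotransposon gene AT3G44570 rose from 0.247 and 0.482 to 11 and 13.1 FPKM, and its opposite-strand locus from 0.112 and 0.239 to 8.54 and 12.4. AT2G01023, of 120 nt, was listed at 0 in both untreated libraries and at 267 and 349 FPKM in the digested ones. At that length FPKM is very large per read. Of the unnamed loci, 2 were chosen after their values were seen: XLOC_008030 went from 48.5 and 58.6 to 3550 and 3637 FPKM, and XLOC_017994 from 1.93 and 1.73 to 65.8 and 66.8.

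Gene length and base composition tracked the size of the loss. Over 12001 protein-coding members with no 7SL, snRNA or snoRNA gene in their interval, the median log2 fold change was −1.38 for exon lengths up to 750 nt, −1.17 from there to 1000 nt, −0.89 from there to 1500 nt and −0.57 above 3000 nt. By GC content of the exons, it was −1.04 up to 38% and −0.41 above 44%. At 5 FPKM or more without RNase R, where the pseudocount weighs less, the same ends stood at −2.34 and −0.70 by length and at −2.01 and −0.55 by GC. Spearman's rho across these 3325 loci, which share their libraries and are not independent, was 0.4 with exon length and 0.374 with GC. It was 0.164 with the number of introns and 0.0591 with the longest intron. Between 1500 and 2000 nt of exon, members with no intron had a median of −0.58 and those with 10 or more introns −0.79, so intron-rich genes of like length were not less depleted. Only 3 members lay inside an intron of another gene on its strand, too few to describe intron-borne RNAs, and gene-level FPKM do not separate lariats from linear RNA.

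**Figure D4:**
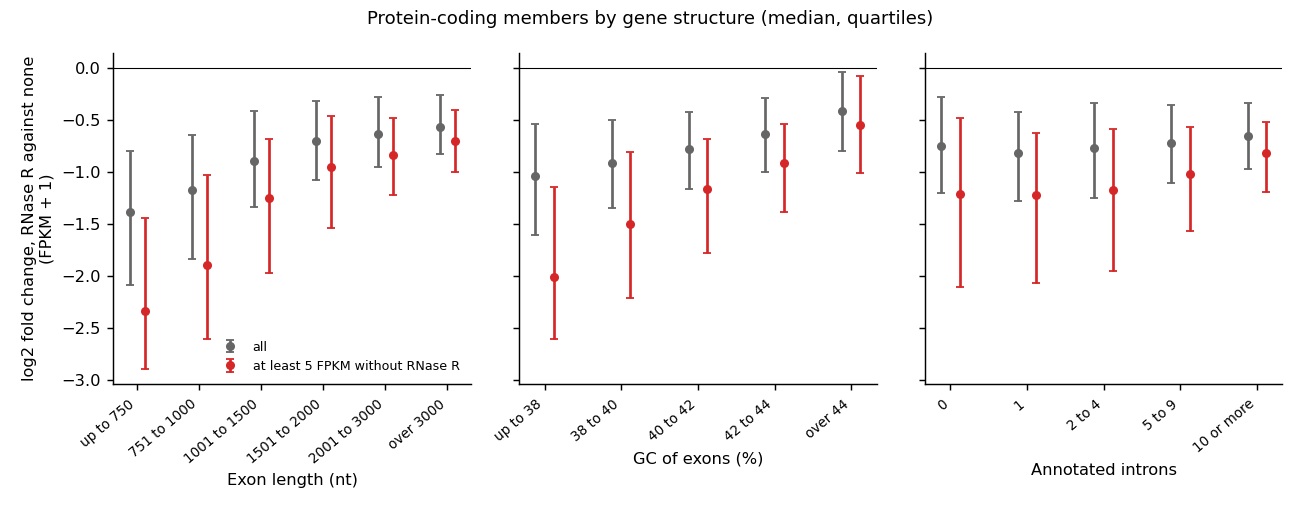
Median and quartiles of the log2 fold change with RNase R by exon length, exon GC and number of annotated introns, for 12001 protein-coding members (grey) and for the 3325 with at least 5 FPKM without RNase R (red). The medians of the red points climb from −2.34 to −0.70 with length and from −2.01 to −0.55 with GC, and from −1.21 to −0.82 with introns.

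Among genes that act on RNA, the list of splicing factors stood somewhat above the bulk. Of its 29 members 5 rose, 16 fell and 8 did not pass, with a median of −0.43 beside −0.71 over all members, and the split turned to 17 higher and 4 lower with median-ratio scaling and to 0 and 29 as TPM. GRP7, a clock-controlled RNA-binding protein that regulates splicing of its own transcript, went from 218 and 181 to 570 and 582 FPKM (1.53, SE 0.14, adjusted p = 3.99e-05). The SR protein gene RS40 went from 9.39 and 9.29 to 26.3 and 23.4 (1.32, SE 0.12), and SR34A from 4.92 and 5.41 to 9.01 and 9.4. In these 3 the groups were separate, although as TPM all 29 members were lower. U2AF65A, the large subunit of the factor that binds the pyrimidine tract of introns, fell from 8.91 and 8.23 to 1.56 and 1.86 FPKM (−1.82, SE 0.13), and RS31 and PRL1, a spliceosome-associated protein, fell by 1.23 and 1.28.

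Of 22 small RNA machinery members 1 rose, 14 fell and 7 did not pass (median −0.42, and 9 to 2 with median-ratio scaling). The riser was DDL, a protein that helps DCL1 process microRNA precursors, from 1.7 and 1.07 to 7.13 and 6.7 FPKM (1.74, SE 0.15), which turned to −0.75 as TPM. Of 4 mRNA export adaptors ALY4 rose, from 1.69 and 1.67 to 3.1 and 3.39 FPKM, ALY1 and ALY2 fell and ALY3 did not pass. ALY4 was called lower as TPM (−1.66), and ALY1 and ALY2 lost their calls with median-ratio scaling (adjusted p = 0.509 and 0.415). Of 20 RNA decay members 17 fell and 3 did not pass (median −0.66, and 4 higher to 8 lower with median-ratio scaling), among the falls the exosome subunit RRP4 (2.74 and 2.91 to 0.499 and 0.218 FPKM) and UPF2 of nonsense-mediated decay (2.53 and 2.72 to 0.531 and 0.599). DBR1 itself was at 0.662 and 0.694 FPKM without and 0.202 and 0.188 with RNase R, below the filter. Precursors of trans-acting small RNAs were the one list of nuclear genes with a median above 0 in the deposited FPKM: of 5 members 3 rose, 1 fell and 1 did not pass (median 0.57, and 0 to 4 as TPM). With median-ratio scaling the medians of splicing factors (0.45), export adaptors (0.64), small RNA machinery (0.23), housekeeping (0.22) and nuclear photosynthesis genes (0.14) were above 0 as well. TAS3, whose small RNAs target auxin response factors, went from 4.92 and 4.3 to 38.4 and 45.1 FPKM (2.93, SE 0.14, adjusted p = 2.42e-06), while its log2 fold change was −0.17 as TPM. TAS1C fell from 2.75 and 2.67 to 1.57 and 1.02.

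Lists tied to the tissue followed the bulk. Of 16 floral identity and meristem members 12 fell, 3 rose and 1 did not pass (median −0.74, and 5 higher to 6 lower with median-ratio scaling). The B-class genes AP3 (10.6 and 9.44 to 1.06 and 1.86 FPKM) and PI (14.8 and 15 to 2.17 and 3.36) specify petals and stamens and fell, and SEP3 fell by 1.34. AP1, AP2 and CAL rose by 0.27, 0.34 and 0.55, so genes of 1 pathway moved in both directions in the deposited FPKM, although as TPM all 16 were lower. Of 13 tapetum and pollen members 10 fell, 1 rose and 2 did not pass (median −1.08, and 3 to 7), of 26 nuclear photosynthesis members 20 fell and 6 did not pass (−0.87, and 11 to 12), and all 8 clock members fell (−0.90, and 0 to 3), the second pair of counts being that with median-ratio scaling. Within photosynthesis, RBCS1B, of the small subunit of Rubisco, fell from 54.9 and 69.6 to 3.05 and 2.47 FPKM, whereas LHCB1.2, a light-harvesting protein, was at 115 and 122 against 117 and 113 and did not pass. Of 19 housekeeping members 17 fell, or 5 fell and 9 rose with median-ratio scaling, with ACT7 at 75.4 and 77.5 against 20.9 and 20.5 and UBQ10 at 100 and 108 against 30.1 and 32.9 FPKM, EF1A4 rose by 0.40 and ACT8 did not pass. As TPM all 19 were lower.

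**Figure D5:**
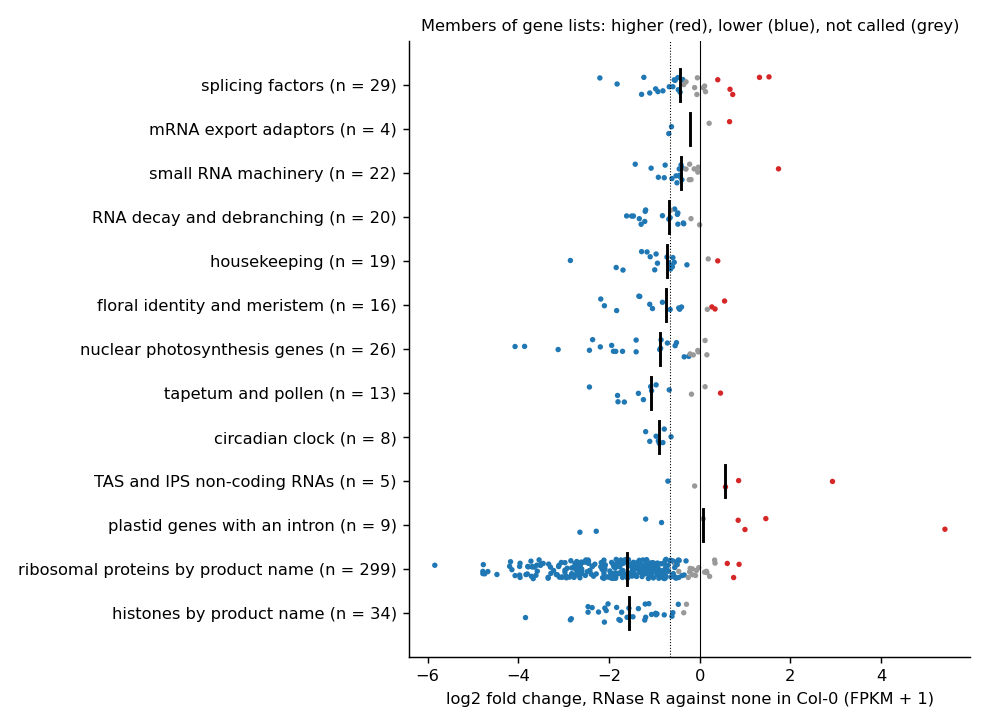
Log2 fold change with RNase R of the members of 13 gene lists, each point a locus (red called higher, blue called lower, grey not called), with the list's median as a black bar, a solid line at 0 and a dotted line at the median of all tested loci (−0.66). Ribosomal protein (−1.60) and histone (−1.55) medians lie far to the left, and only the TAS and IPS RNAs and the plastid genes with an intron have a median above 0 in the deposited FPKM.

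Between the untreated and the digested library that share a tag date the median was −0.67 over the tested loci, and all 10661 called members had the same direction there. Both libraries took part in making those calls, so the shared direction is no separate check on the tag date. In dbr1-2, digested in the same way, the median change over the members was −0.72. Of the 1107 members higher in Col-0, 927 were higher in dbr1-2 as well, which is 83.7% of them and 50.6% of the members higher in the mutant, and 7.0% of all tested loci were higher in both. Of the 9554 lower in Col-0, 8512 were lower there too (89.1% and 92.3%), as were 63.1% of tested loci. The change itself differed between the genotypes for 1690 members by the interaction term, more positive in dbr1-2 for 1351 and more negative for 339, against 10.8% and 2.99% of tested loci. Opposite-strand members gave 105 and 6 of these. No digested dbr1-2 library shares a tag date with a digested Col-0 library. Genotype and tag date therefore cannot be told apart in the digested libraries.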

How the data were processed

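Libraries were made with a stranded total RNA kit after Ribo-Zero depletion, per the labels' protocols. TopHat2 2.0.13, Cufflinks 2.2.1, Cuffnorm 2.2.1 and TAIR10 are named per the submitters' processing notes. The authors deposited 1 FPKM per locus and library. Library scaling and the strand setting of the counting are not given in the sources used here.

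Members had at least 1 FPKM in 2 of the 4 Col-0 libraries. They, the gene lists and the tests were chosen with earlier results of these data known. Values on the scale log2(FPKM + 1) were tested by limma (3.58.1, R 4.3.3) with an eBayes trend, over 14351 loci with at least 1 FPKM in 2 of 8 libraries. All 8 libraries entered 1 fit of 4 groups with no covariate (4 residual degrees of freedom), and p-values were two-sided and adjusted after Benjamini-Hochberg over all loci. The fit was tested on simulated data. This scale understates the change of low loci. Fold changes against libraries at 0 depend on the pseudocount and are not given.

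Low values fell within 0.05 of whole reads in 92.2% to 97.5% of cases in the Col-0 libraries, which gave the depth per FPKM. Names were matched to the TAIR10.1 annotation (nuclear sequence as in TAIR10) for 30924 nuclear loci. An interval is the span Cufflinks joined, which 3775 members share with another locus. Copies of 7SL were found with BLAST 2.17.0 (at least 150 nt). Tables used pandas 2.3.3 and scipy 1.17.1 (Python 3.11.15), and plots matplotlib 3.10.9.

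The text names called members with a mean of at least 5 FPKM, at least 300 nt of exon, 1 gene name and groups that do not overlap: 15 per direction with the greatest change for nuclear protein-coding genes and 8 per direction for the rest. Added were the 5 most abundant loci per treatment, up to 3 of each list by smallest p, up to 5 loci per direction at 0 in 1 group, DBR1 and SEP3, and a subset of these is described. Small RNA, opposite-strand, plastid and further list members were named outside that rule, after their values were seen. Replicate numbers did not pair the Col-0 libraries (correlation of deviations −0.05 between treatments). Between the untreated libraries of both genotypes, whose equal numbers share tag dates, it was 0.303. Other settings numbered 21, and 2 more were chosen after seeing the data.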

Additional observations from a re-analysis of the deposited data

Results flagged for a closer look

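For 23 named loci the change with RNase R differed between the genotypes in the limma interaction test (adjusted p under 0.05). The digested libraries of the 2 genotypes share no tag date, so a difference of tag date cannot be told apart from genotype. Each value below is the log2 difference, the change in dbr1-2 minus that in Col-0, and its size depends on the pseudocount where FPKM are low.

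U2AF65A was at 7.81 and 7.59 FPKM without and 7.7 and 5.86 with RNase R in dbr1-2, where Col-0 had fallen, a difference of 1.65, and RS31 was likewise level in dbr1-2, at 1.17. ALY4 rose to 33.9 and 40.1 FPKM in the digested dbr1-2 libraries against 3.1 and 3.39 in Col-0, a difference of 2.73. What lies behind these values was not tested.

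Some loci rose less in dbr1-2: AT3G06435 by −1.66 on its strand and −2.17 opposite, AT3G44570 by −2.10, BXL3 by −0.92 and AT1G32570 by −0.59. HTB4, a histone H2B gene, fell further there, by −0.84. Other loci fell less: AT3G11120 by 1.79, MT2B by 1.04, AT3G60245 by 1.51, RPL23AA by 1.05, AT5G03850 by 1.46, AT5G56710 by 0.79, AT4G30650 by 1.71, PSBTN by 0.81, PETE2 by 0.69, AT5G65360, a histone H3 gene, by 0.78, AT2G07731, whose sequence is also in the mitochondrial genome, by 1.19, and the plastid gene rpl14 by 1.05. AT2G01023 and psbA were listed at 0 in all 4 dbr1-2 libraries, which alone gives their −8.26 and 13.44, and a 0 may be a failed estimate.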

How the results depend on the processing

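Loci called were 11375 (1187 higher, 10188 lower), and 2713 (499 and 2214) with a mean of at least 5 FPKM and 2324 (337 and 1987) with a minimum log2 fold change of 1. Higher and lower calls were 4060 and 4451 with median-ratio scaling and 4192 and 4260 with quantile normalization. Higher calls were 1844 with no filter on low values, 197 as TPM and 262 after removal of organelle, rRNA and snRNA loci. The removal keeps AT1G15405, listed at 0 in 1 digested library, and so scales the digested replicates far apart. The median log2 fold change of −0.66 was −1.03 and −1.10 with pseudocounts of 0.1 and 0.01, −0.09 with no filter, −0.71 over the members and −0.73 at a mean of at least 5 FPKM. It was −0.05 with median-ratio scaling, −0.01 with quantile normalization, −2.67 as TPM and −2.66 after the removal. The cause of these shifts was not tested.

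Leaving out 1 Col-0 library gave 9950 to 10907 calls, 919 to 1151 higher and 8978 to 9816 lower, with medians of −0.66 to −0.65. The replicate block gave 1191 higher and 10188 lower calls, and 1337 members more positive and 300 more negative in dbr1-2 by the interaction (1351 and 339 without it). The numbers do not pair the Col-0 libraries. The 2 alternatives chosen after seeing the data, without loci with a doubtful zero and without intervals of 7SL, snRNA or snoRNA, gave 1190 higher and 10195 lower and 1165 higher and 10081 lower.

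Of single loci, these changed sign: AT1G15405 without digested replicate 1 (5.58, against −14.25 without digested replicate 2), ALY4 as TPM (−1.66) and after the removal (−1.04), ALY1 with median-ratio scaling (0.16), ALY2 with median-ratio scaling (0.24) and quantile normalization (0.06), DDL (−0.75) and TAS3 (−0.17) as TPM, and TAS2 as TPM (−1.75) and after the removal (−0.96). At 0.266 to 0.35 FPKM per 3 reads on 1 kb, digested values below 1 FPKM rest on few reads.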
